A study of Mus musculus with 14 samples.

Results

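The genes described here are the ligands and receptors of vascular endothelial growth factor (VEGF) signalling: 5 ligands (Vegfa, Vegfb, Vegfc, Vegfd and Pgf) and 4 receptors and co-receptors (Flt1, Kdr, Nrp1 and Nrp2). They were chosen by name, and all 9 were among the 15894 genes of the deposited table. RNA was measured in the dissected epicardium and subepicardium of fetal mouse hearts, with 2 hearts pooled for each library and polyadenylated RNA sequenced as single reads of 60 bases. There were 3 female ventral and 3 female dorsal libraries from pools 1 to 3, 4 male ventral libraries from pools 4 to 7 and 3 male dorsal libraries from pools 4 to 6. All groups carried the genotype label Tbx18Cre, while the study's design text called the hearts wild type, and no animal received a treatment. A further 1 male library, pool 7, was called dorsal in its title and ventral in its tissue field, so that its values are given but it entered no comparison. The pools of the sexes had different numbers, so that sex and anything that differed between the preparation of pools 1 to 3 and of pools 4 to 7 cannot be told apart.

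VEGF ligands are secreted proteins that act on receptor tyrosine kinases of endothelial cells. VEGFA binds VEGFR1, encoded by Flt1, and VEGFR2, encoded by Kdr, which carries most of its signal in blood vessel growth, whereas VEGFB and placental growth factor, encoded by Pgf, bind VEGFR1 but not VEGFR2. VEGFC and VEGFD are the ligands of lymphatic growth, which act on VEGFR3, encoded by Flt4. Once cleaved, VEGFC also acts on VEGFR2. The neuropilins Nrp1 and Nrp2 are co-receptors that VEGF ligands share with class 3 semaphorins, and Nrp2 is known from veins and lymphatic vessels.

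Depth ran from 13.9 to 19.4 M reads per library in female ventral tissue, from 19.8 to 20.8 M in its dorsal counterpart, and from 18.8 to 24.2 M (ventral) and 15.2 to 24.7 M (dorsal) in males, where M stands for 1e6 reads. Values are reads scaled to the size of the library (normalized CPM), and 3 reads corresponded to between 0.116 and 0.217 normalized CPM, well under the level of every member in every library. Markers fixed for the dissected tissue were present in all groups: the 11 epicardial markers summed to between 1801 and 2893 normalized CPM in female ventral, 347 and 662 in female dorsal, 2123 and 6255 in male ventral and 1659 and 4432 in male dorsal libraries. The 10 ventricular cardiomyocyte markers summed to between 17335 and 46096 over the same libraries, so that the dissected layer also held myocardial RNA. In such bulk samples, fewer cells of a type and less RNA per cell cannot be told apart. The library of male ventral pool 7 stood apart, with the lowest sum of the 10 blood endothelial markers (270 normalized CPM, against 488 to 1029 in the other 12 libraries of settled group), and the highest sum of the 3 erythroid markers (291, against at most 122). Values that moved most without it are given both ways. The 3 female ventral libraries also stood apart: the mitochondrial ribosomal RNA gene mt-Rnr2 was at 17672 to 21846 normalized CPM there, against 1173 to 3211 in the other 10 libraries of settled group, and mt-Rnr1 at 2340 to 4430 against 215 to 455. In females this moved with region in every library. Region and whatever went with these levels thus cannot be told apart in the ventral changes of Vegfc, Nrp2 and Vegfb called in females. Their part in those changes was not tested.

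Compared per kilobase of exon, the ligand Vegfb had the highest level of the 9 genes, at 23.8 ± 8.63 normalized CPM per kb (SD, n = 13 libraries). It was followed by the co-receptor Nrp1 at 16.3 ± 3.43 and by Kdr at 10.3 ± 3.41 normalized CPM per kb. Vegfb was above Nrp1 in 10 of 13 libraries and Nrp1 above Kdr in 12 of 13. Vegfd (8.19 ± 5.49), Pgf (6.75 ± 2.33), Nrp2 (6.66 ± 3.46) and Vegfc (5.16 ± 2.79) came next, and these neighbours exceeded each other in only 7 or 8 of 13 libraries, so that their order did not hold beyond the spread. Flt1 (3.04 ± 0.793) and Vegfa (2.57 ± 0.863) were at the lower end, with Flt1 above Vegfa in 8 of 13 libraries. With the length of the longest transcript in place of all exons, Nrp1 (43.9 ± 9.20) stood above Vegfb (29.8 ± 10.8). Vegfa, the best known ligand of blood vessels, was last under both lengths.

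**Figure D1:**
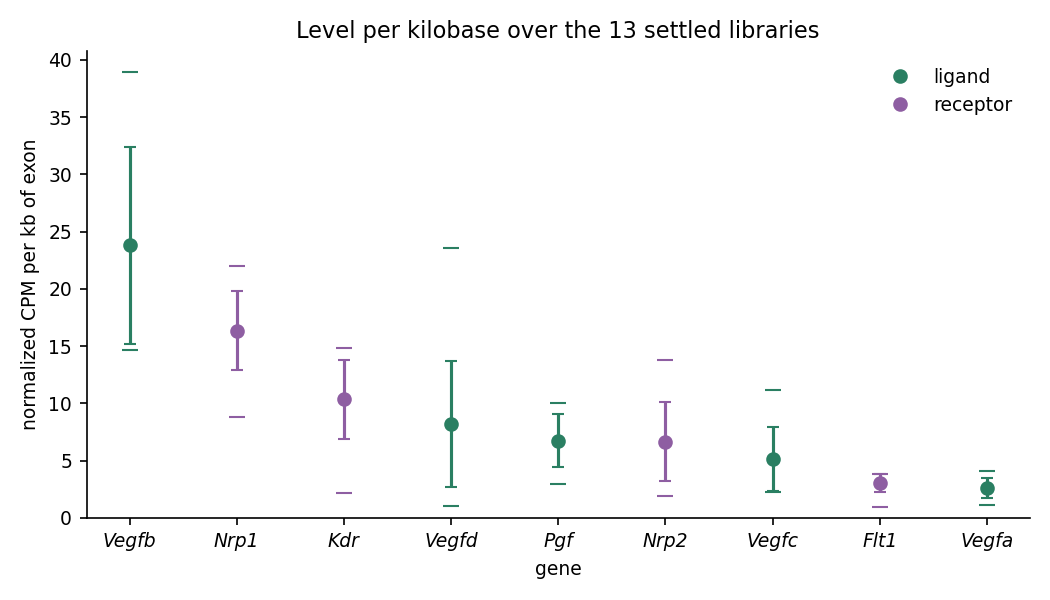
Level of each ligand (green) and receptor (purple) in normalized CPM per kb of exon over the 13 libraries of settled group. Points and bars are the mean and SD, and dashes mark the lowest and highest library. Vegfb has the highest mean (23.8) and Vegfa the lowest (2.57).

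The order differed between the groups, most of all at Nrp2. It was the last of the 9 genes in female dorsal libraries, at 2.34 normalized CPM per kb, and the fourth in male dorsal libraries, at 10.2. Per kb, the 4 receptors summed to 0.535 ± 0.131 times the 5 ligands in female ventral (SD, n = 3), 0.852 ± 0.233 times in female dorsal (n = 3), 0.807 ± 0.305 times in male ventral (n = 4) and 1.22 ± 0.135 times in male dorsal libraries (n = 3). With the longest transcript as the length, the ratios were 0.918 ± 0.207, 1.48 ± 0.411, 1.40 ± 0.525 and 2.05 ± 0.208 in the same order, so that whether ligands or receptors summed higher depended on the length used. Under both lengths the mean was lowest in female ventral and highest in male dorsal libraries. Vegfb alone made up between 44.6% and 60.9% of the ligand sum per kb of exon in the group means, so that the ratios lean on it. Per kb of exon, the ratio was 0.492 in male ventral pool 7, against 0.672, 1.21 and 0.860 in male ventral pools 4 to 6. These ratios leave out Flt4, the gene of VEGFR3, and were not tested.

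The first question was whether ventral and dorsal tissue of female hearts differed in VEGF genes. Vegfc, Nrp2 and Vegfb were higher ventrally, while Vegfa, Pgf, Flt1, Kdr and Nrp1 did not pass the test. Of the 9 members 3 passed, all higher ventrally, against 27.8% of all 14411 genes tested in either direction and 14.5% higher ventrally. The ventral and dorsal libraries did not overlap for the same 3 members, against 44.8% of all genes. Passing the test means an adjusted p under 0.05 from limma on log2(normalized CPM + 1) with Benjamini-Hochberg adjustment over all genes tested, and fold changes are on that scale.

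Vegfc, a ligand of lymphatic growth, was at 19.9, 21.9 and 27.4 normalized CPM in female ventral pools 1 to 3 and at 7.83, 8.14 and 10.01 in the dorsal pools of the same numbers. Every ventral library was above every dorsal one. The log2 change was 1.31 (SE 0.23, 2.49-fold, limma adjusted p = 0.00356), and it passed under all 16 alternatives. Vegfd, the other lymphatic ligand, was at 12.4, 26.2 and 56.7 normalized CPM ventrally and at 8.66, 2.59 and 17.6 dorsally. Each pool was higher ventrally, but the pools differed so much that ventral pool 1 was below dorsal pool 3. Its log2 change of 1.68 (SE 0.62) had an adjusted p of 0.0698 by limma, and with the pool number as a block, SE 0.39 and adjusted p = 0.00875. Without the block it also passed without ventral pool 1 (adjusted p = 0.0301) or dorsal pool 3 (0.0272), and without dorsal pool 2 the change was 1.04 (adjusted p = 0.209). Vegfc lies on chromosome 8 (GRCm38, 54077606 to 54187096, plus strand) and Vegfd on chromosome X (164373378 to 164402650, plus strand).

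Because Vegfc, Vegfb and Nrp2 were the members that passed together, and Vegfd the one that did so with the block, the bases before their starts are shown from RefSeq (GRCm38.p6, 5′ to 3′ on the strand of the gene). Bases that the gene annotation counts as transcribed were left out. Capitals mark the GC box, GGGCGG on either strand, which was in 32.7% of 32851 promoter windows of 250 bases. The windows are chr8:54077282-54077531 for Vegfc, chr19:6987652-6987901 for Vegfb, chr1:62703067-62703284 for Nrp2 and chrX:164373272-164373377 for Vegfd.
Vegfc: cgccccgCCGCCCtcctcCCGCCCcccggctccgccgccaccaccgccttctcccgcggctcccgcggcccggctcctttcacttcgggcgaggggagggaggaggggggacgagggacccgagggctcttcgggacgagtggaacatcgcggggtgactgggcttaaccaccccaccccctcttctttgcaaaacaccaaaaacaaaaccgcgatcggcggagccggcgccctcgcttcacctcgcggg
Vegfb: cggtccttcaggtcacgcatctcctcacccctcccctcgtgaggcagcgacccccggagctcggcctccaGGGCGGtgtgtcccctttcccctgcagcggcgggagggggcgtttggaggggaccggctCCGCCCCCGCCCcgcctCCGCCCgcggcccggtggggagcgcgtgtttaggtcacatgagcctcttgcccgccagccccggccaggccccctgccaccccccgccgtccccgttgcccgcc
Nrp2: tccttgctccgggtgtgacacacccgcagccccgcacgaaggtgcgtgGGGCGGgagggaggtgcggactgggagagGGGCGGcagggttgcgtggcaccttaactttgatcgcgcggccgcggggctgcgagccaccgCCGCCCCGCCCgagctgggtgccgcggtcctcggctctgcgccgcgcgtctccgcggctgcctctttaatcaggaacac
Vegfd: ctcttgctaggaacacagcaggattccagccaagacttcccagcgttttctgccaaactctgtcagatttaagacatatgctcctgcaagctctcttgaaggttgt
The stretches shown held 2 GC boxes for Vegfc, 4 for Vegfb, 4 for Nrp2 and 0 for Vegfd. In the full 250 bases, G and C made up 71.6% for Vegfc, 76.4% for Vegfb, 72.4% for Nrp2 and 42.4% for Vegfd, against a median of 52.4% over all windows. TATAAA on either strand was in none of the 4 stretches shown. It was in 12.4% of all windows of 250 bases, among them that of Vegfd, where it lay in the bases left out. ACGTG, the core letters of hypoxia response elements, was in none of the full windows of these 4 genes and in 16.6% of all. The members not shown held GC boxes in their full windows too. Flt1 had 3 (70.4% G and C), Kdr 2 (61.6%) and Nrp1 1 (64.4%). The starts of Pgf had 2 and 0 (68.4% and 66.4%), and those of Vegfa 2 and 1 (59.2% and 59.6%). GC boxes were thus not particular to the members that passed. These matches are a description of the letters only.

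Nrp2, a co-receptor for VEGFC, was at 56.4, 88.4 and 43.7 normalized CPM in female ventral and at 22.8, 32.9 and 27.5 in female dorsal pools 1 to 3. Every ventral library was above every dorsal one, with pool 2 the highest on both sides. The log2 change was 1.10 (SE 0.25, 2.15-fold, limma adjusted p = 0.0112), and it passed under all 16 alternatives. Nrp2 lies on chromosome 1 (62703285 to 62818695, plus strand). Vegfb, a ligand of VEGFR1, was at 62.42, 61.997 and 53.41 normalized CPM ventrally and at 30.4, 39.5 and 45.0 dorsally. These libraries did not overlap either. The log2 change was 0.63 (SE 0.18, 1.55-fold, limma adjusted p = 0.0258). Vegfb no longer passed without ventral pool 1 (adjusted p = 0.0604), ventral pool 2 (0.0890), dorsal pool 1 (0.0679) or dorsal pool 2 (0.0591), nor once a trend with GC content and length was removed, nor without the variance trend. It lies on chromosome 19 (6982473 to 6987651, minus strand).

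The receptors of blood endothelium showed no such difference at this size of sample. Kdr was at 123, 134 and 75.2 normalized CPM ventrally and at 99.4, 118 and 69.9 dorsally, a log2 change of 0.20 (95% interval -0.35 to 0.75). It was higher ventrally in each of the 3 pools, and with the pool number as a block the SE was 0.15 and the limma adjusted p 0.334. Flt1 ranged from 38.6 to 51.3 ventrally and from 44.0 to 48.6 dorsally (-0.10, interval -0.46 to 0.27), and Nrp1 from 129 to 171 and from 134 to 171 (-0.05, interval -0.39 to 0.29). Vegfa ranged from 9.78 to 15.2 ventrally and from 9.86 to 13.8 dorsally (0.05, interval -0.52 to 0.62), and Pgf from 11.4 to 28.2 and from 8.66 to 21.7 (0.29, interval -0.57 to 1.14). The median log2 change was 0.63 over the 5 ligands and 0.07 over the 4 receptors, beside 0.01 over all genes tested. Flt4, with a log2 change of 1.14, is not among these 4 receptors.

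**Figure D2:**
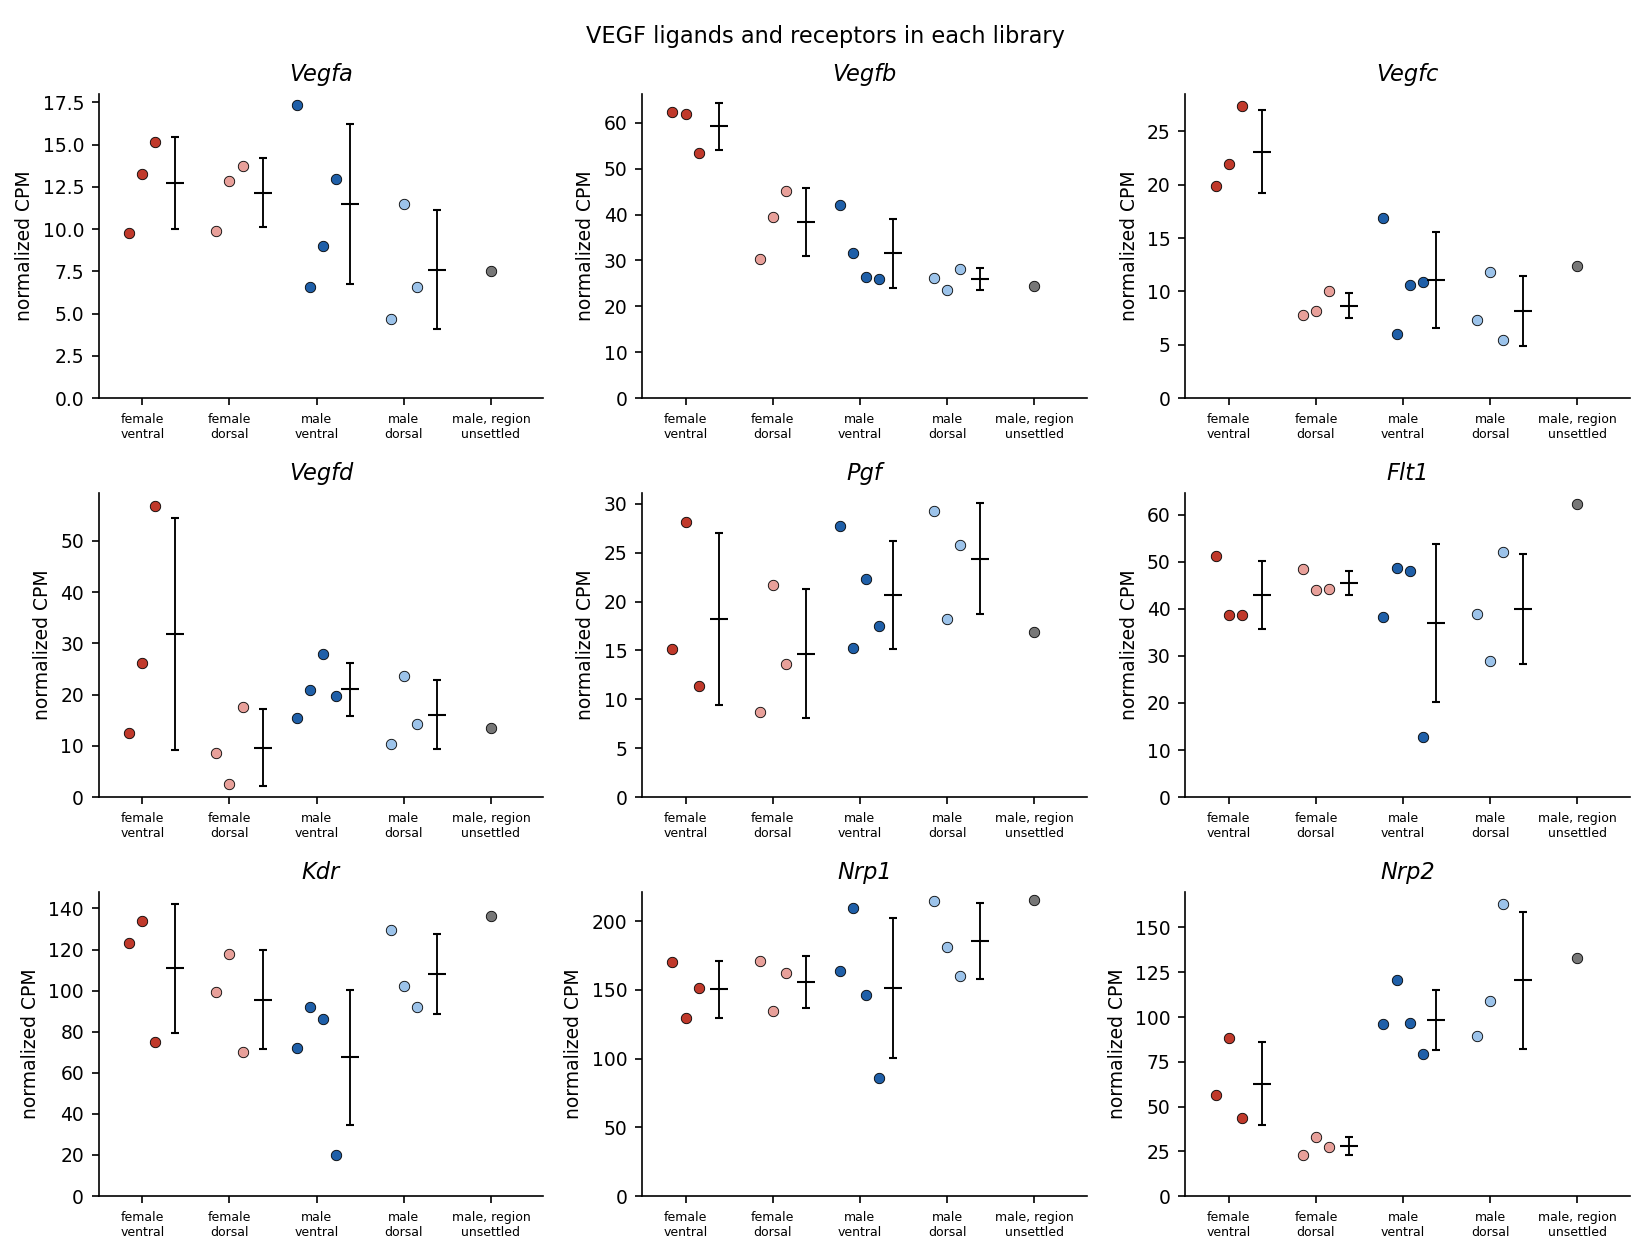
Normalized CPM of each ligand and receptor by library, for both regions of each sex and for the male library of unsettled region. Each point is a pool of 2 hearts, and black marks are the mean and SD. Vegfc sits between 19.9 and 27.4 in female ventral libraries, above all female dorsal ones, and Nrp2 at 89.4 or more in male dorsal libraries.

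Other cell types moved with region in the same female libraries. Of 11 epicardial markers 10 were higher ventrally (median log2 change 2.34), among them Upk3b, Msln and Krt19, and 1 did not pass. Of 6 lymphatic endothelial markers, 3 were higher ventrally (Pdpn, Lyve1 and Ccl21a) and 3 did not pass, while with the pool number as a block 5 were higher, with Reln (limma adjusted p = 0.0469) and Mmrn1 (0.0138) added. Their sum, with every entry of a gene added, was between 381 and 2077 normalized CPM ventrally and between 130 and 310 dorsally. Ccl21a has more than 1 entry, and the entry of smallest p was counted. Of 8 fibroblast markers 5 and of 7 macrophage markers 6 were higher ventrally, with none lower. Of 10 blood endothelial markers none passed (median 0.06; sum 488 to 852 ventrally and 678 to 778 dorsally). Of the smooth muscle and pericyte markers 2 were higher (1 with the block, without Pdgfrb) and 3 lower, of 10 ventricular cardiomyocyte markers 1 was higher, of 5 atrial markers 1 was lower (Nppa), and of 3 erythroid markers 1 was lower. Female dorsal pool 1 stood apart in the sum of the 5 atrial markers. That sum was 12462.5 normalized CPM there, against at most 1993 in any other library of settled group. Without that library, Vegfc (limma adjusted p = 0.0114) and Nrp2 (0.0349) still passed in females, and Vegfb did not (0.0679). No marker of these lists was at or under 3 reads throughout either female group. The part of these cell types in the changes of Vegfc, Nrp2 and Vegfb was not tested.

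The genes that act with VEGFC and VEGFD followed the ligands in part. Flt4, their main receptor, was at 50.9, 84.1 and 29.0 normalized CPM ventrally and at 24.0, 21.3 and 21.4 dorsally. Its log2 change was 1.14 (SE 0.32, limma adjusted p = 0.0255), and it did not pass in 7 of 16 alternatives. These were without ventral pool 1 (0.0540) or 2 (0.0800) or dorsal pool 2 (0.0694) or 3 (0.0586), and without the variance trend. The others were those with the GC content and length trend removed, with and without the pool number as a block. Of the 9 genes of the receptor and its ligands' processing, 5 were higher ventrally, 1 was lower and 3 did not pass. The proprotein convertases Furin (52.4 ± 9.67 against 27.7 ± 7.25 normalized CPM, adjusted p = 0.0147) and Pcsk5 (45.8 ± 21.6 against 13.5 ± 5.77, adjusted p = 0.0191) and the procollagen proteases Adamts2 (61.2 ± 12.6 against 28.7 ± 11.1, adjusted p = 0.0132) and Adamts14 (5.56 ± 0.742 against 1.81 ± 0.284, adjusted p = 0.0138) were higher (SD, n = 3 pools each, limma). Adamts3, which cleaves VEGFC, was lower ventrally, at 1.29 ± 0.687 against 3.60 ± 0.631 normalized CPM (limma adjusted p = 0.0494).

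Of 12 genes of class 3 semaphorins and of plexins, their signalling partners, 8 were higher ventrally, none was lower and 4 did not pass (median 1.42). With the pool number as a block 9 were higher, with Sema3b (limma adjusted p = 0.0338) added. Plxna4 was at 104 ± 30.9 normalized CPM ventrally and 17.3 ± 2.16 dorsally (log2 change 2.47, limma adjusted p = 0.000334), Sema3d at 125 ± 43.0 and 27.8 ± 7.08 (2.09, adjusted p = 0.00108) and Sema3f at 12.1 ± 2.88 and 2.57 ± 0.345 (1.85, adjusted p = 0.00248). Below VEGFR2, 7 of 25 signalling genes were higher ventrally and 6 lower. The GTPase gene Rac1 was lower ventrally (149 ± 23.6 against 379 ± 38.7 normalized CPM), while the focal adhesion gene Pxn (35.8 ± 7.16 against 15.9 ± 1.14) was higher. Of 9 genes that VEGFA induces in endothelium, Rcan1 was lower ventrally (51.9 ± 18.8 against 123 ± 33.6) and 8 did not pass. Of 9 genes of hypoxia control, Egln1 was higher (98.1 ± 17.04 against 62.3 ± 9.99), Hif1a was lower (129 ± 9.58 against 204 ± 18.1) and 7 did not pass.

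In male hearts, none of the 9 members passed the same test, nor did any of the 14917 genes tested (0%). With limma, 2083 genes had an unadjusted p under 0.05, and edgeR on recovered reads also called 0. With the pool number as a block, which leaves out male ventral pool 7 for want of a settled partner, 91 genes passed, none of them a member. Of the lists, Rac1, Csf1r, Adamts2 and Ccl21a were then higher and Nppa lower ventrally. The ventral and dorsal libraries overlapped for every member, while they did not overlap for 14% of all genes.

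Vegfc was at 16.9, 5.99, 10.6 and 10.9 normalized CPM in male ventral pools 4 to 7 and at 7.30, 11.8 and 5.43 in male dorsal pools 4 to 6, a log2 change of 0.38 (95% interval -0.44 to 1.201). Vegfd was at 15.5, 20.98, 27.9 and 19.7 ventrally and at 10.4, 23.6 and 14.3 dorsally (0.41, interval -0.26 to 1.07). With 1 library left out, the change of Vegfc ran from 0.15 (without dorsal pool 6) to 0.65 (without dorsal pool 5), and that of Vegfd from 0.15 to 0.71. The regions overlapped for both lymphatic ligands, and pool 5 was higher dorsally for each. Nrp2 was at 96.1, 120, 96.8 and 79.5 ventrally and at 89.4, 109 and 163 dorsally (-0.26, interval -0.74 to 0.22). The change was 0.53 for Vegfa (interval -0.32 to 1.39) and 0.25 for Vegfb (-0.21 to 0.71). It was -0.24 for Pgf (-0.81 to 0.33) and -0.35 for Nrp1 (-0.93 to 0.23). Over the 5 ligands the median change in males was 0.38 and over the 4 receptors -0.31, beside 0.03 over all genes tested.

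Kdr was at 71.9, 91.9, 86.1 and 19.97 normalized CPM in male ventral pools 4 to 7 and at 130, 102 and 91.9 in male dorsal pools 4 to 6. The lowest value was that of ventral pool 7, the library with the lowest blood endothelial sum. The log2 change was -0.86 (SE 0.45, adjusted p = 0.409 by limma) with that library and -0.36 (SE 0.18, adjusted p = 0.531) without it. In pools 4 to 6, which have both regions, Kdr was lower ventrally each time, and with the pool number as a block the adjusted p was 0.298 by limma. Flt1 (12.8, against 38.3 to 48.7 in the other 3 male ventral libraries) and Nrp1 (85.9, against 147 to 209) were also lowest in ventral pool 7, and the log2 change of Flt1 was -0.23 with it and 0.20 without it. Of the ligands, Vegfa (12.95 normalized CPM), Vegfc (10.9), Vegfd (19.7) and Pgf (17.5) lay inside the range of the other male ventral libraries there, and Vegfb (26.05) was lowest there by a small margin, next to 26.47 in pool 6.

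**Figure D3:**
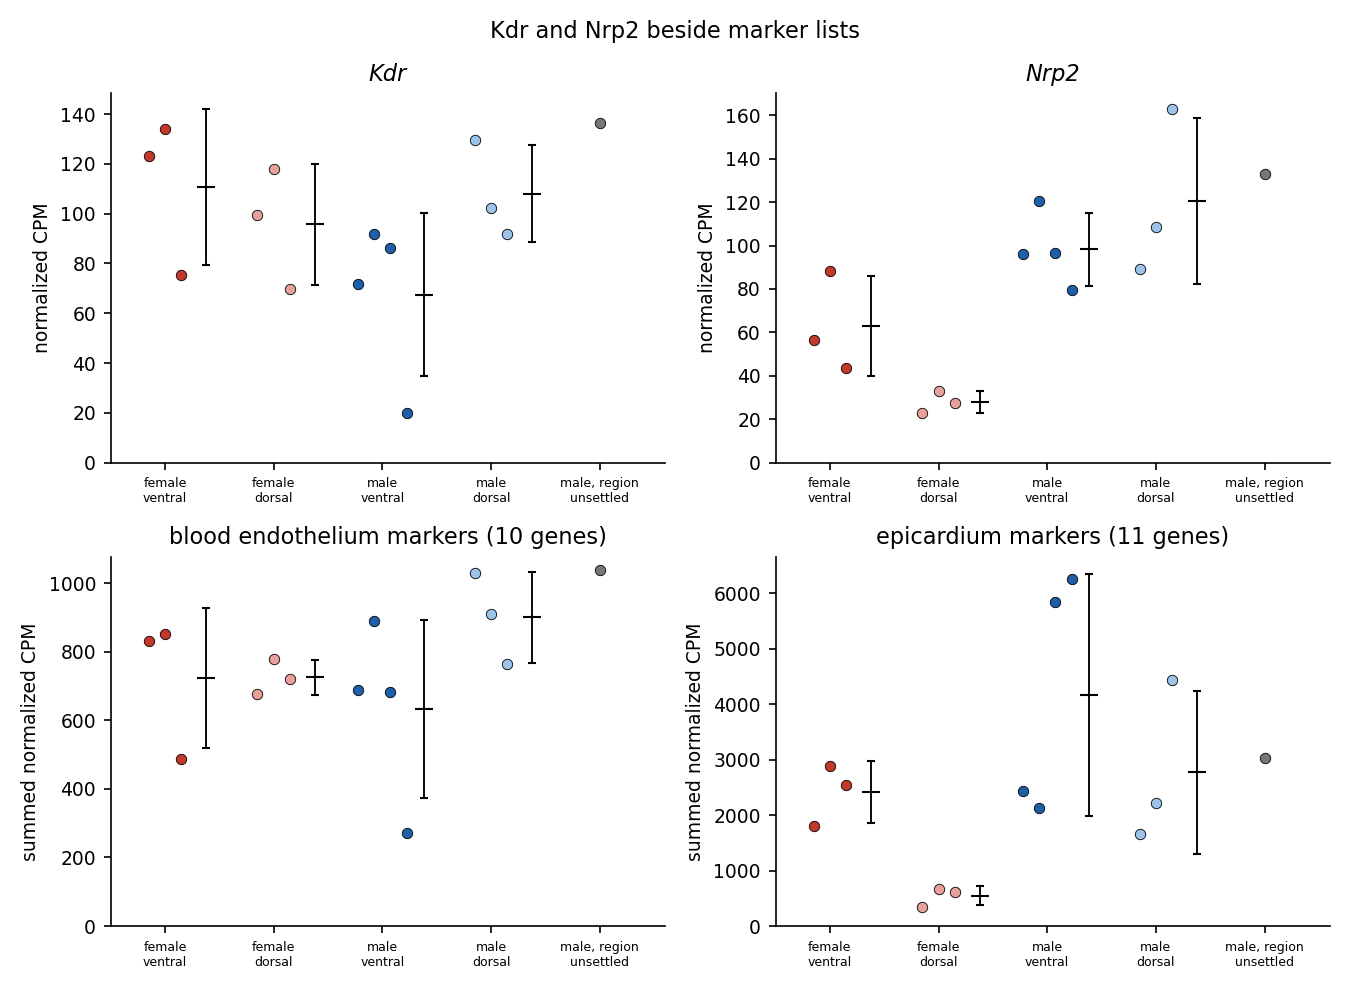
Kdr and Nrp2 (normalized CPM, top) beside the summed normalized CPM of 10 blood endothelial and 11 epicardial markers (bottom), by library and group, with mean and SD in black. Male ventral pool 7 is lowest for Kdr (19.97) and for the endothelial sum (270), and the female dorsal libraries are lowest for Nrp2 (22.8 to 32.9) and for the epicardial sum (347 to 662).

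Whether the regional change itself differed between the sexes was tested as an interaction. It passed for none of the 9 members, against 2.73% of 15772 genes. The nearest was Nrp2, with a difference of -1.37 between the male and the female log2 change (SE 0.35, limma adjusted p = 0.0564). With the pool number as a block, and hence without male ventral pool 7, the difference was -1.27 (SE 0.28, adjusted p = 0.0174). It also passed without female ventral pool 3 (adjusted p = 0.0327) or male dorsal pool 4 (0.0421). For Vegfc the difference was -0.94 (95% interval -1.91 to 0.04) and for Vegfd -1.27 (-2.88 to 0.34), so that these data do not show the regional change of either lymphatic ligand to differ between the sexes.

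Between the sexes, with region as a term, Nrp2 was higher and Vegfb lower in males, which makes 2 of 9 members against 10.9% of 15772 genes. This fit counted ventral and dorsal libraries of the same pool number as independent, although sex differed only between pools. Nrp2 was at a median of 38.3 normalized CPM in the 6 female libraries (22.8 to 88.4) and 96.8 in the 7 male libraries (79.5 to 163). Only female ventral pool 2 reached the male range. The log2 difference was 1.32 (SE 0.25, 2.50-fold, limma adjusted p = 0.00303), and it passed under all 22 alternatives planned. In dorsal libraries alone it was 2.05 (SE 0.23, limma adjusted p = 0.000579, where 7.04% of genes passed), with every male library (89.4 to 163) above every female one (22.8 to 32.9). In ventral libraries alone it was 0.68 (SE 0.23, adjusted p = 0.110, where 5.98% passed). The library of unsettled region had Nrp2 at 133 normalized CPM.

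Vegfb was at a median of 49.2 normalized CPM in female (30.4 to 62.4) and 26.5 in male libraries (23.5 to 42.0). The log2 difference, male minus female, was -0.73 (SE 0.14, limma adjusted p = 0.00437), and it passed under all 22 alternatives planned. It was -0.91 (SE 0.19, adjusted p = 0.0249) in ventral and -0.53 (SE 0.20, adjusted p = 0.165) in dorsal libraries alone. Vegfc did not pass, with a difference of -0.62 (SE 0.25, adjusted p = 0.131 by limma), although it did without male dorsal pool 5 (-0.79, adjusted p = 0.0499), nor did Pgf (0.48, SE 0.25, adjusted p = 0.239), Vegfa (-0.42, adjusted p = 0.300), Kdr (-0.38), Flt1 (-0.30), Vegfd (0.23) or Nrp1 (0.09). Without male ventral pool 7 the differences were -0.09 for Kdr, -0.07 for Flt1 and 0.22 for Nrp1, and none passed. Of the 11 epicardial markers 6 were higher in males and none lower, and of 10 blood endothelial markers Tek was higher and Erg lower. The part of these cell types in the differences of Nrp2 and Vegfb was not tested.

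**Figure D4:**
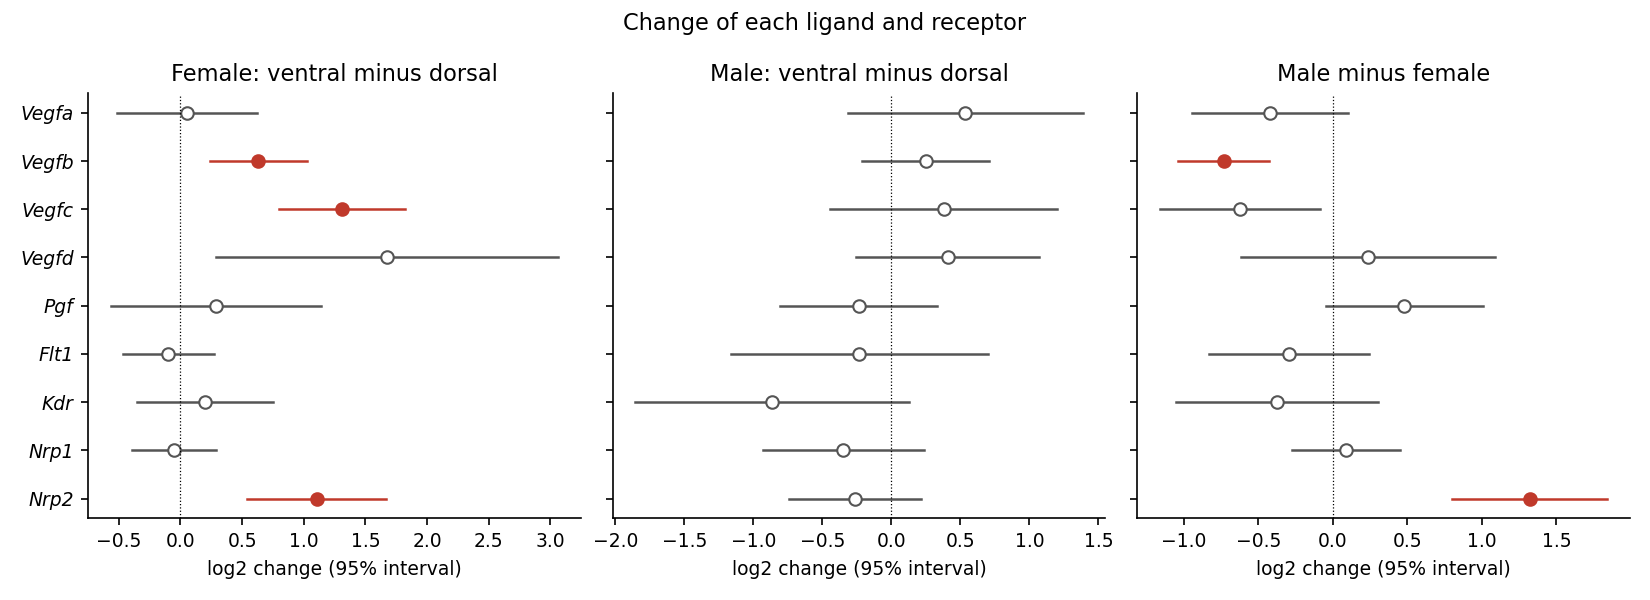
Log2 change of each ligand and receptor on the log2(normalized CPM + 1) scale with its 95% interval, for ventral minus dorsal in females, ventral minus dorsal in males and male minus female with region as a term. Filled red points passed the test: Vegfb, Vegfc and Nrp2 in females, none in males, and Vegfb (-0.73) and Nrp2 (1.32) between the sexes.

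Over the 13 libraries of settled group, the genes whose log2 values were most like those of each member were ranked by Pearson r among 11345 genes, as a description of libraries that share depth and composition. For Kdr these were the endothelial cadherin gene Cdh5 (r = 0.952, Spearman rho = 0.813), Sparcl1 (0.950) and Elk3 (0.944). For Flt1 they were Fzd6 (0.920), Cdh5 (0.858, rho = 0.198) and Clec1a (0.853), and for Nrp1 Ptprb (0.873), Tmem50b (0.871) and Aplnr (0.867). Without male ventral pool 7 (12 libraries), r with Cdh5 was -0.105 for Flt1 and 0.786 for Kdr, so that the likeness of Flt1 to Cdh5 rested on that library. The r of Nrp1 was then 0.646 with Ptprb, 0.751 with Tmem50b and 0.623 with Aplnr. For Vegfb, Vegfc, Vegfd, Pgf and Nrp2 the genes named next kept an r of at least 0.856 without it. Vegfc was most like Klhl5 (0.966), Ier3ip1 (0.957) and Reps1 (0.946), Vegfd like Cdon (0.917), Adamts5 (0.915) and Col6a6 (0.915), and Vegfb like Xiap (0.952), Kpnb1 (0.942) and Pcbp2 (0.928). Nrp2 was most like Cnpy3 (0.937), Htra3 (0.937) and Zdhhc12 (0.937), Pgf like Rpl29 (0.962), Ablim3 (0.861) and Wbp1l (0.856), and Vegfa like Mbd2 (0.872), Pth1r (0.848) and Agpat2 (0.820). Between members, r was highest for Kdr and Flt1 (0.794, and -0.035 without male ventral pool 7). The r of Vegfc with the other ligands was 0.722 for Vegfb, 0.673 for Vegfa, 0.508 for Vegfd and -0.077 for Pgf. Without that library these were 0.747, 0.687, 0.511 and -0.078.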

How the data were processed

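Per the labels and the study's methods, the authors trimmed reads with Cutadapt, quantified them per gene with RSEM (version 1.3.1 in the submitters' processing notes) on GRCm38, normalized with limma and required 1 CPM in 3 or more samples for a gene. Whether strand was used is not given in the sources used here. The deposited signal is a normalized CPM. Whole reads were recovered for 100.0% of values (tolerance 0.02 reads), and edgeR 4.0.16 on those reads called 3650 genes in females, 0 in males, 380 for the interaction and 1540 between the sexes.

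Values were tested as log2(value + 1) with limma 3.58.1 in R 4.3.3 over genes at 1 or more in at least 3 libraries, with Benjamini-Hochberg adjustment, and scripts were tested on simulated data. Females and males were compared between regions separately, and an interaction and a sex term were fitted over all 13 libraries of settled group. Same-numbered pools deviated together (r = 0.169 to 0.427 over 6 pairs), so that the numbers were taken to pair the libraries, and a blocked fit is given where it changes a call. Pairs of different numbers ran from -0.369 to 0.295, the highest being male ventral pool 7 with male dorsal pool 6. The consensus correlation of libraries of 1 number was 0.0124, from a fit of region and sex without their interaction. The pairing is an assumption. Libraries of 1 group are separate pools of hearts, while ventral and dorsal libraries of 1 number were taken to share a pool. The main fits treated all libraries as independent. With the pool number as a block, the sex difference had a limma adjusted p of 0.00329 for Nrp2 and 0.00467 for Vegfb. That fit used the correlation of 0.0124, so that it hardly differed from the main fit. It is therefore no check on counting libraries of 1 pool as independent. In fits of 1 region, Nrp2 passed in dorsal libraries (limma adjusted p = 0.000579) but not in ventral ones (0.110). Vegfb passed in ventral libraries (0.0249) but not in dorsal ones (0.165). Gene positions and lengths came from GENCODE for GRCm38. Genes were named by a fixed rule: the members, Flt4, genes of each pathway list that passed (up to 4), markers of highest level and the 3 genes most like each member. Some genes that the rule names are not reported here. The members and lists were chosen with earlier results of these data known. Intervals are 95%, and floors cover counting error only.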

Additional observations from a re-analysis of the deposited data

Results flagged for a closer look

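No member's male ventral libraries held a value far enough from the rest to pass Dixon's test at 4 samples, among 11 sets of values tested. With so few samples this does not show that no library stood apart. Kdr, at 19.97 normalized CPM in male ventral pool 7 and 71.9 to 91.9 in the other male ventral libraries, did not pass either. No member's regional change passed the test of a difference between the sexes. Among the genes that act with them, the regional log2 change differed between the sexes, as male minus female and by limma, for the semaphorin co-receptor gene Plxna4 (-2.05), for Rac1 (2.56) and for Prkca (1.57). Plxna4 was higher ventrally in females, and the other two were lower ventrally in females.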

How the results depend on the processing

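Nrp2 and Vegfc in females, and Nrp2 and Vegfb between the sexes, kept their direction and their call under every alternative planned. The number of genes called in females (4007) ran from 2158 (without female ventral pool 2; 2291 without female dorsal pool 2) to 3845 with 1 library left out. In males it was 0, and 1 without the variance trend, 91 with the replicate block, 38 with the replicate block and the GC and length trend removed, and 0 to 12 with 1 library left out, the highest without male dorsal pool 6. For the interaction it was 431, and 817 with the replicate block, 786 with the block and the GC and length trend removed, and 260 (without female dorsal pool 2; 267 without female ventral pool 2) to 447 with 1 library left out. In it 1 member, Nrp2, in place of 0 was called with the block, with the block and the GC and length trend removed, with a mean of at least 10, and without female ventral pool 3 or male dorsal pool 4. Between the sexes 1726 genes were called, and, in alternatives chosen after seeing the data, 1005 in dorsal and 902 in ventral libraries alone, each with 1 member.

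Log2 changes that turned sign belonged to genes that did not pass. In females, with quantile normalization, Vegfa was at -0.073 and Nrp1 at 0.039, and with 1 library left out Vegfa ran from -0.079 to 0.22, Pgf from -0.063 to 0.60, Kdr from -0.0091 to 0.45 and Nrp1 from -0.15 to 0.053. In males Vegfb was at -0.034 with the GC and length trend removed, Flt1 at 0.20 with the replicate block and 0.055 with the block and that trend removed, and with 1 library left out Flt1 ran from -0.44 to 0.20 and Flt4 from -0.15 to 0.58. In the interaction Flt1 was at 0.048 with the trend removed, 0.30 with the replicate block and 0.46 with both, and ran from -0.34 to 0.30 with 1 library left out. Between the sexes Vegfd ran from -0.10 to 0.56 with 1 library left out and was at -0.36 in ventral libraries alone, where Nrp1 was at -0.051, and Kdr was at 0.19 in dorsal libraries alone. The cause of these changes was not tested. With the block, Vegfd in females and Nrp2 in the interaction were the members whose call changed. In the interaction the block also added 8 epicardial, 3 fibroblast, 2 lymphatic and 2 macrophage markers and 2 semaphorins, all with a lower ventral minus dorsal change in males, and 1 erythroid marker.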

Other observations

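The male library of unsettled region had Vegfa at 7.55, Vegfb at 24.4, Vegfc at 12.3, Vegfd at 13.5, Pgf at 16.9, Flt1 at 62.3, Kdr at 137, Nrp1 at 215 and Flt4 at 21.6 normalized CPM. Its receptors summed to 1.59 times its ligands per kb, and its blood endothelial markers to 1038 and its epicardial markers to 3027 normalized CPM.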
